A study of Mus musculus with 8 samples.

Results

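Expression of 8 genes that mark bile duct cells and simple epithelia was followed in Hepa1-6 cells, a line from a mouse liver tumour whose strain the labels give as C57BL/6. The genes are the keratins Krt7, Krt8, Krt18, Krt19 and Krt23, the adhesion molecule Epcam, the secreted phosphoprotein Spp1 (osteopontin) and the transcription factor Sox9. They were picked by name as biliary and simple epithelial markers, by a rule that uses no measured value. Earlier results of these data were known when they were picked. They are 8 of the 54446 genes of the deposited count table. Of these, 7 had enough counts to be among the 15613 genes tested, and Krt23 did not. The series holds 8 mRNA libraries in 4 groups of 2. Cells received trimethylamine N-oxide (TMAO) at 50 µM together with tumour necrosis factor α (TNF-α) at 50 ng/ml, TNF-α alone at 50 ng/ml, TMAO alone at 50 µM, or neither agent (control), and exposure lasted 24 h. TMAO is an oxidised amine that the liver makes from a product of gut bacteria, and TNF-α is an inflammatory cytokine. For the combined group 1 label writes TMAO in the place of each agent, but the titles and the protocol of treatment write TMAO and TNF-α. Each group has a library numbered 14 and one numbered 16, without a stated meaning. Nothing says that they came from separate cultures, so a p-value reflects the spread between libraries alone, possibly a technical one. The line is a single tumour-derived line, and all groups share it.

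Keratins are the intermediate filament proteins of epithelia and assemble from pairs of a type II and a type I chain. Krt8 (type II) with Krt18 (type I) is the pair of simple epithelia and the only abundant keratin pair of hepatocytes, whereas cholangiocytes, the cells that line bile ducts, add Krt7 (type II) and Krt19 (type I). Epcam, Spp1 and Sox9 are found in cholangiocytes and in liver progenitor cells and are low in normal mature hepatocytes. TNF-α signals through its receptors to NF-κB and to stress kinases.

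In the marker check the libraries only partly carried the biliary description. Krt8, Krt18, Spp1, Sox9, Epcam and Krt7 reached at least 1 CPM (counts scaled for library size) in some library, the limit used for all markers here. Krt19, a defining cholangiocyte keratin, had 0 to 17 counts and Krt23 had 0 to 3 counts in a library. Since Krt8 and Krt18 are hepatocyte keratins as well, the genes are called here by name. Of 10 hepatocyte markers 6 reached 1 CPM, among them Alb, Afp and Hnf4a, with Ttr, Apoa1, Serpina1a and Ambp below it. Of 9 leukocyte and Kupffer cell markers 2 reached 1 CPM, with Cd68 at group means of 8.13 to 11.9 CPM and Csf1r at 3.12 to 7.38 CPM, while Cd3e was at 0 and Ptprc at 9 counts or fewer in each library. None of 6 endothelial genes reached 1 CPM. Of 9 stellate and fibroblast markers 4 reached it, among them Dcn at group means of 1290 to 1750 CPM and Pdgfra at 18.5 to 20.9 CPM.

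Depth ran from 24736746 (TNF-α 16) to 30488605 (TMAO 16) total counts, so that 3 counts, the limit that a count of 0 allows, correspond to 0.0993 to 0.124 CPM for counting error only. The TNF-α libraries stood apart from each other. Their difference in log2 CPM had an SD of 0.69 over genes, against 0.21 within TMAO + TNF-α, 0.18 within TMAO and 0.25 within control. No pair of libraries agreed within sampling noise (chi-square of 1.97 per gene or more). A list of 8 NF-κB targets served as a check of exposure. Calls were made by the quasi-likelihood test of edgeR, adjusted by Benjamini-Hochberg over all genes tested, at an adjusted p under 0.05. With TNF-α averaged over cells with and without TMAO, 8 of 8 rose, where 5.35% of all genes tested were called higher. Vcam1 rose there by 2.16 ± 0.07 and Ccl2 by 2.57 ± 0.11 on the log2 scale (estimate ± SE). The number was 8 for TNF-α against control, and 7 for TMAO + TNF-α against TMAO and against control.

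The proximal promoters of the genes called with TNF-α (Krt7, Epcam and Spp1), and of the Krt8 and Krt18 pair, are shown as the 250 bases before the RefSeq transcription start, 5′ to 3′ on the gene's strand (RefSeq, GRCm38.p6). Of the 8 genes 6 had an entry, and Krt19 and Sox9 had none. Krt7 is at chr15:101412153-101412402 (plus strand), Epcam at chr17:87635729-87635978 (plus strand), Spp1 at chr5:104434861-104435110 (plus strand, the first of its listed starts), Krt8 at chr15:102004343-102004592 (minus strand) and Krt18 at chr15:102027966-102028215 (plus strand). Capitals mark matches, on either strand, to TATAAA, to ATAAAA and to GGGCGG, and matches to the NF-κB site. The NF-κB site was searched on the strand shown only.
Krt7: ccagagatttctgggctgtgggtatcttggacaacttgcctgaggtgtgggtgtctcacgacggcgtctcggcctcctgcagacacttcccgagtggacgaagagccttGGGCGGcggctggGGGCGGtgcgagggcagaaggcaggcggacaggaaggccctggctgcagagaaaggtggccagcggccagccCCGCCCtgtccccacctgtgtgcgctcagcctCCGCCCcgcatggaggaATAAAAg
Epcam: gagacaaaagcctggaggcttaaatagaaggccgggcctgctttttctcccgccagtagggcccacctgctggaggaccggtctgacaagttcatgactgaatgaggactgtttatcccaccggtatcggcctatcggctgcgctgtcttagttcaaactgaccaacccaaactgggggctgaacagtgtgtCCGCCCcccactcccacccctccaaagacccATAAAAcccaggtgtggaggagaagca
Spp1: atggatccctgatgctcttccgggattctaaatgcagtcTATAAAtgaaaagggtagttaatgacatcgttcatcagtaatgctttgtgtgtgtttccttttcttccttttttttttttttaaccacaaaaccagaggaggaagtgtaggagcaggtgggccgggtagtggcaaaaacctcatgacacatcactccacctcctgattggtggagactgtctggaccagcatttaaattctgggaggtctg
Krt8: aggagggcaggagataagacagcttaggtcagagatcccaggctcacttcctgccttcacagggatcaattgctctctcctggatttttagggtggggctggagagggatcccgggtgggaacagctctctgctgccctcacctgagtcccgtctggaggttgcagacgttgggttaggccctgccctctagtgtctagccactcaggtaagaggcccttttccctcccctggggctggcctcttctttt
Krt18: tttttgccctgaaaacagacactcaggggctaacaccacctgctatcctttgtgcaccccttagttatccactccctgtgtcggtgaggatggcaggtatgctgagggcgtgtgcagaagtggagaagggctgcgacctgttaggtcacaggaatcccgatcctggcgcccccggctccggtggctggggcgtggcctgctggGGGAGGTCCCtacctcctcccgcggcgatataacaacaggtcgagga

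A match here is a match of letters and was not tested as a binding site. The Krt7 window held 4 matches to GGGCGG and an ATAAAA 7 bases before the start. Epcam had 1 GGGCGG 58 bases and an ATAAAA 27 bases before its start, and the Spp1 window had a TATAAA 211 bases before its start. In the Krt18 window the NF-κB site matched once, 47 bases before the start, whereas its partner Krt8 had none of these 4 motifs on the strands searched. Among all 32851 promoter windows of this length in the table, 12.4% held TATAAA, 17% ATAAAA and 32.7% GGGCGG. The NF-κB site, on the gene's strand only, was in 5%. Of 3 further motifs searched on both strands, TGANTCA (AP-1, 6.75% of windows) and CATTCC (TEAD, 12.6%) had no match in these 5 windows, and TGGGAA (RBPJ, 21.6%) matched once, in Krt8. Krt8 and Krt18 lie 23874 bases apart, start to start, on opposite strands of chromosome 15.

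The levels of the 8 genes, compared per length in TPM (transcript levels scaled for length and depth), spanned several orders of magnitude. Averaged over the 8 libraries, Krt18 had 1360 TPM, Krt8 578 TPM and Spp1 316 TPM. Sox9 followed at 23.1 TPM, Epcam at 8.99 TPM and Krt7 at 3.72 TPM. Krt19 at 0.292 TPM and Krt23 at 0.0184 TPM came last. The ranges of neighbours in this order did not overlap over the 8 libraries, except between Epcam and Krt7 and between Krt19 and Krt23, and counts divided by exon length gave the same order.

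**Figure D1:**
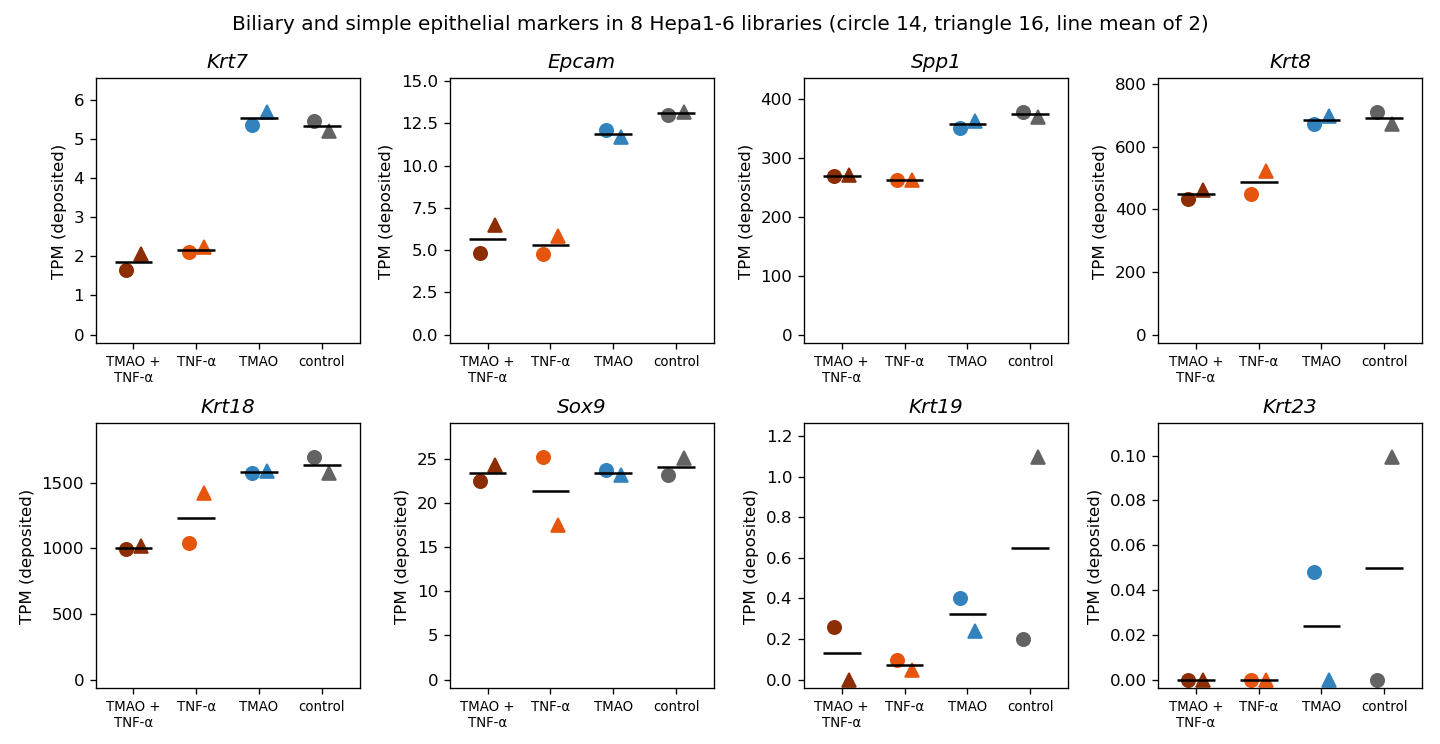
Deposited TPM (y axis, linear) of each of the 8 genes in the 4 groups (x axis); circles are libraries numbered 14, triangles those numbered 16, and lines the mean of 2. Krt7 lies at 1.64 to 2.22 TPM in the 4 libraries with TNF-α and at 5.2 TPM or more in the 4 without it, while Sox9 has no such gap.

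Of the 7 genes tested, 3 fell with TNF-α when its effect was averaged over cells with and without TMAO, namely Krt7, Epcam and Spp1, and none rose. In that comparison 3.86% of all 15613 genes tested were called lower, 5.35% higher and 9.2% in either direction, at an adjusted p under 0.05. The median log2 fold change was -0.51 over the 7 genes and 0 over all genes tested. In bulk RNA, fewer cells of a type and less RNA per cell cannot be told apart.

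Krt7, the type II keratin of duct-like epithelia, had the largest fall among the 3. Its level was 1.64 and 2.06 TPM in TMAO + TNF-α cells, 2.1 and 2.22 TPM in TNF-α cells, 5.36 and 5.69 TPM in TMAO cells, and 5.45 and 5.2 TPM in control cells. All 4 libraries with TNF-α were below all 4 without it. The averaged change was -1.40 ± 0.17 on the log2 scale (SE, 95% interval -1.79 to -1), which is 2.63-fold lower, with an adjusted p of 0.00298 in the quasi-likelihood test of edgeR. The counts behind these values were 71 to 102 in libraries with TNF-α and 219 to 266 in libraries without it. Under all 18 other settings tried the averaged change stayed called, between -1.59 and -1.1, with an adjusted p of at most 0.0262.

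Epcam, which encodes an adhesion molecule of the lateral epithelial membrane and a marker of liver progenitors, fell by a similar amount. It had 4.84 and 6.5 TPM in TMAO + TNF-α cells, 4.76 and 5.84 TPM in TNF-α cells, 12.1 and 11.7 TPM in TMAO cells, and 13.02 and 13.18 TPM in control cells. The libraries with and without TNF-α again did not overlap. Its averaged change was -1.19 ± 0.17 (95% interval -1.59 to -0.79), 2.28-fold lower, with an adjusted p of 0.00647 in the same edgeR test. It too was called under all 18 other settings, between -1.39 and -1.03, with an adjusted p of at most 0.0404.

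Spp1, which encodes the integrin and CD44 ligand osteopontin, showed a smaller fall from a far higher level. TMAO + TNF-α cells had 268.8 and 270.9 TPM, TNF-α cells 263 and 262.7 TPM, TMAO cells 351.1 and 363.1 TPM, and control cells 378.2 and 369.5 TPM. The 4 libraries with TNF-α lay at 262.7 to 270.9 TPM, below all 4 without it. The averaged change was -0.44 ± 0.10 (95% interval -0.67 to -0.20), 1.35-fold lower, with an adjusted p of 0.0378 in the edgeR test. This call was kept in 11 of 18 other settings. In 6 of the others, those that left out 1 TMAO + TNF-α, TMAO or control library, it was lost at adjusted p of 0.114 (without control 16) to 0.182 (without TMAO + TNF-α 16), with changes of -0.46 to -0.40. Without TNF-α 14, with TNF-α 16 as the only library of its group, the change was -0.35. Without TNF-α 16, with TNF-α 14 as the only library of its group, it was -0.53. Both fits are among the settings that kept the call, but they called a larger share of all genes than the fit to all libraries. Each has 1 library in the TNF-α group, so these calls are not read as a result about Spp1.

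The main pair of simple epithelial keratins did not pass the test in this comparison, although their values were apart in TPM. Krt8 had 431.7 and 463.3 TPM in TMAO + TNF-α cells, 448 and 523.9 TPM in TNF-α cells, 672.5 and 698.5 TPM in TMAO cells, and 711.6 and 673.1 TPM in control cells. Krt18 had 991.9 and 1021 TPM in TMAO + TNF-α cells, 1043 and 1420 TPM in TNF-α cells, 1575 and 1590 TPM in TMAO cells, and 1698 and 1572 TPM in control cells. For both genes all 4 libraries with TNF-α were below all 4 without it, and TNF-α 16 was the highest of the 4. The averaged change was -0.51 ± 0.14 for Krt8 (95% interval -0.83 to -0.19, adjusted p = 0.0693, edgeR) and -0.48 ± 0.17 for Krt18 (95% interval -0.89 to -0.07, adjusted p = 0.169, edgeR). Krt8 passed under 7 and Krt18 under 6 of the 18 other settings. Without TNF-α 16, with TNF-α 14 as the only library of its group, the changes were -0.67 for Krt8 and -0.70 for Krt18. Without TNF-α 14, with TNF-α 16 as the only library of its group, they were -0.38 for Krt8 and -0.30 for Krt18. Both fits are among the settings passed. Each has 1 library in the TNF-α group, so these passes are not read as a result about the pair. In TNF-α 16, 20815 genes had a count, against 22253 to 22917 in the other libraries.

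The 2 deposited tables placed TNF-α 16 differently. In CPM from the counts, Krt18 was at 665.4 and 674.9 CPM in TMAO + TNF-α cells, 693.9 and 1201 CPM in TNF-α cells, 1070 and 1086 CPM in TMAO cells, and 1221 and 1061 CPM in control cells, so that TNF-α 16 lay among the libraries without TNF-α. Spp1 had 145.1 and 187 CPM in TNF-α cells, where its TPM values were nearly equal. Of the 8 genes, 5 were lower in every library with TNF-α than in any without it by TPM (Krt7, Krt8, Krt18, Epcam and Spp1), beside 6.85% of 22736 entries of the TPM table, and 4 by CPM (the same without Krt18), beside 10.2% of the 15613 genes tested.

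Krt18 and Krt8 kept a nearly fixed ratio. It was 2.3 and 2.2 in TMAO + TNF-α cells, 2.33 and 2.71 in TNF-α cells, 2.34 and 2.28 in TMAO cells, and 2.39 and 2.34 in control cells, in TPM over TPM. Apart from the 2.71 of TNF-α 16, the ratio stayed between 2.2 and 2.39. Reads of Krt8 could be shared with Krt8-ps, a processed pseudogene of 98.618% identity over 941 bases, which took 71 counts in all libraries against 114406 for Krt8, and Krt18 has a pseudogene of 90.45% identity, Gm5200, with 0 counts.

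**Figure D2:**
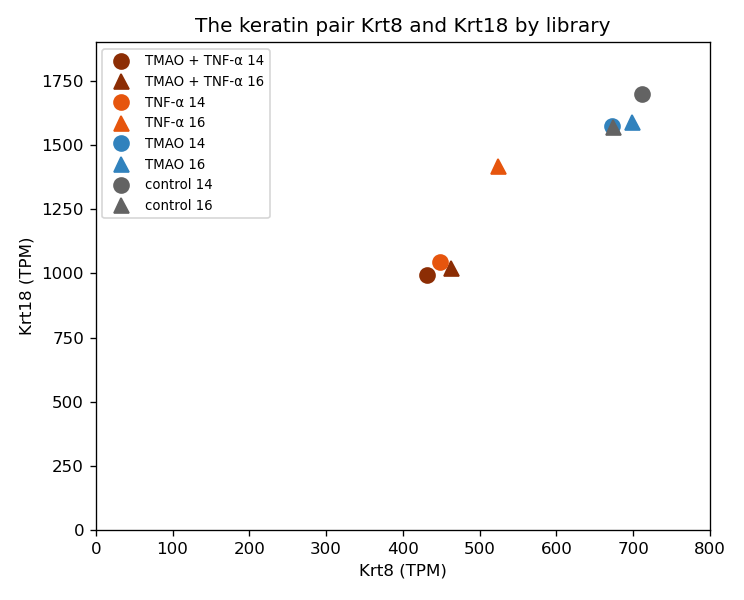
Krt18 (y axis, TPM) against Krt8 (x axis, TPM) in each of the 8 libraries, both axes linear from 0. The TMAO + TNF-α libraries and TNF-α 14 sit together at 431.7 to 463.3 TPM of Krt8, the libraries without TNF-α at 672.5 TPM or more, and TNF-α 16 between them at 523.9 TPM.

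Sox9, a transcription factor of bile duct development, did not pass in any comparison of this fit. It had 22.53 and 24.29 TPM in TMAO + TNF-α cells, 25.24 and 17.54 TPM in TNF-α cells, 23.72 and 23.18 TPM in TMAO cells, and 23.2 and 25.08 TPM in control cells. The groups overlapped, and both the highest and the lowest library were TNF-α libraries. Its averaged change with TNF-α was -0.07 ± 0.07 (95% interval -0.25 to 0.11, adjusted p = 0.721, edgeR), the narrowest interval of the 7 genes.

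Krt19 and Krt23, the remaining keratins of the list, were near the limit of counting. Krt19, the type I keratin of bile ducts, had 7 and 0 counts in TMAO + TNF-α cells, 3 and 1 in TNF-α cells, 10 and 5 in TMAO cells, and 6 and 17 in control cells. Its averaged change was -1.69 ± 0.90 with a 95% interval of -3.81 to 0.44 (adjusted p = 0.332, edgeR), and the groups overlapped. Krt23, a type I keratin, had 1 and 0 counts in TMAO + TNF-α cells, 0 and 0 in TNF-α cells, 1 and 0 in TMAO cells, and 0 and 3 in control cells, so no difference was detectable at this depth.

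With TNF-α set against control alone, 2 of the 7 genes fell, where 1.67% of all genes tested were called lower and 4.05% in either direction. Their log2 changes were -1.19 ± 0.23 for Krt7 (adjusted p = 0.0425) and -1.23 ± 0.24 for Epcam (adjusted p = 0.0419, edgeR). Both p-values are close to 0.05 and the calls were lost without any single TMAO + TNF-α, TMAO or control library, with adjusted p of 0.0823 (Epcam, without TMAO + TNF-α 14) to 0.24 (Krt7, without control 14). Leaving out TNF-α 16 left 5 of the 7 called, beside 12.9% of all genes, with Krt7 at -1.58 and Epcam at -1.63. Leaving out TNF-α 14 left 3 of 7, near the 48.9% of all genes called there, with Krt7 at -0.88 and Epcam at -0.92. In the fit to the 4 libraries of these groups alone neither passed (adjusted p of 0.297 for Krt7 and 0.259 for Epcam). The other values were -0.37 ± 0.14 for Spp1 (adjusted p = 0.267), -0.38 ± 0.19 for Krt8 (adjusted p = 0.434), -0.27 ± 0.24 for Krt18 (adjusted p = 0.65) and -0.09 ± 0.11 for Sox9 (adjusted p = 0.722). Krt19, with few counts, stood at -2.36 ± 1.34 (adjusted p = 0.427, edgeR). The median of the 7 was -0.38, beside 0.02 over all genes.

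In the presence of TMAO, 1 of the 7 genes fell with TNF-α. This was Krt7, at -1.60 ± 0.24 (adjusted p = 0.0148, edgeR) in TMAO + TNF-α cells against TMAO cells, where 1.49% of all genes tested were called lower and 3.64% in either direction. Epcam at -1.15 ± 0.24 had an adjusted p of 0.056, Spp1 at -0.50 ± 0.14 one of 0.125, Krt8 at -0.64 ± 0.19 one of 0.161 and Krt18 at -0.69 ± 0.24 one of 0.254. The call of Krt7 was lost without any single TMAO + TNF-α, TMAO or control library (adjusted p of 0.0506 without control 16 to 0.168 without TMAO + TNF-α 14), and 5 genes passed without TNF-α 14 or without TNF-α 16, libraries of neither group that enter only through the shared spread, in fits that each called 16% of all genes. The median of the 7 was -0.69, beside -0.02 over all genes.

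In TMAO + TNF-α cells against control cells 2 of the 7 genes fell, where 1.48% of all genes tested were called lower and 3.49% in either direction. Krt7 stood at -1.47 ± 0.24 (adjusted p = 0.0219) and Epcam at -1.34 ± 0.24 (adjusted p = 0.0336, edgeR). Spp1 at -0.59 ± 0.14 had an adjusted p of 0.0812, Krt8 at -0.70 ± 0.19 one of 0.129 and Krt18 at -0.77 ± 0.24 one of 0.193, and none of these passed. Neither call held without any single TMAO + TNF-α, TMAO or control library (adjusted p of 0.0728, for Krt7 without TMAO 16, to 0.282, for Epcam without TMAO + TNF-α 14), while 5 of the 7 passed without TNF-α 14, beside 18.2% of all genes, or without TNF-α 16, beside 18.4%. The median over the 7 was -0.77, beside 0 over all genes. This comparison and TNF-α against control use the same control libraries, and the averaged comparison is made of TNF-α against control and TMAO + TNF-α against TMAO.

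No gene of the 7 passed the test with TMAO. Against control, TMAO cells differed by 0.14 ± 0.22 for Krt7 (95% interval -0.39 to 0.67), -0.19 ± 0.23 for Epcam (-0.74 to 0.37), -0.08 ± 0.14 for Spp1 (-0.41 to 0.24), -0.06 ± 0.19 for Krt8 (-0.51 to 0.40), -0.08 ± 0.24 for Krt18 (-0.66 to 0.50) and -0.08 ± 0.11 for Sox9 (-0.33 to 0.17), each with an adjusted p of 1 (edgeR). Over all genes 0% were called at an adjusted p under 0.05, 184 had an unadjusted p under 0.05, and DESeq2 called 4, none of them among the 8. Krt19 differed by -0.61 ± 0.98 (95% interval -2.93 to 1.71), the widest interval of the 7. Changes inside these intervals, up to 0.67 on the log2 scale for Krt7, were not detectable here.

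TMAO added to TNF-α gave no call either, with 0% of all genes called by edgeR and 0 by DESeq2, and with 549 at an unadjusted p under 0.05. The widest of these differences among the abundant genes was -0.50 ± 0.24 for Krt18 (95% interval -1.08 to 0.08, adjusted p = 0.569, edgeR), and Krt7 stood at -0.28 ± 0.25. These values turned on which TNF-α library was used, since without TNF-α 14 Krt18 had -0.82 (adjusted p = 1.44e-06), and without TNF-α 16 it had -0.05 (adjusted p of 1). The interaction, the change with TMAO in the presence of TNF-α minus that in its absence, was -0.41 ± 0.33 for Krt7, 0.08 ± 0.34 for Epcam, -0.14 ± 0.20 for Spp1, -0.26 ± 0.27 for Krt8 and -0.42 ± 0.35 for Krt18 (adjusted p of 0.953 to 0.969, edgeR), with 0% of all genes called by edgeR, 0 by DESeq2 and 184 at an unadjusted p under 0.05. Averaged over cells with and without TNF-α, the difference with TMAO was -0.07 for Krt7 (95% interval -0.47 to 0.32), -0.19 for Krt8 and -0.29 for Krt18, again with 0% of all genes called by edgeR, 4 by DESeq2 and 453 at an unadjusted p under 0.05. Without TNF-α 14, 4 of the 7 genes passed in each of these 3 comparisons, near the share of all genes called there, which was 49.4% for TMAO added to TNF-α, 35.5% for the interaction and 44.8% for the average. Without TNF-α 16 none of the 7 passed.

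**Figure D3:**
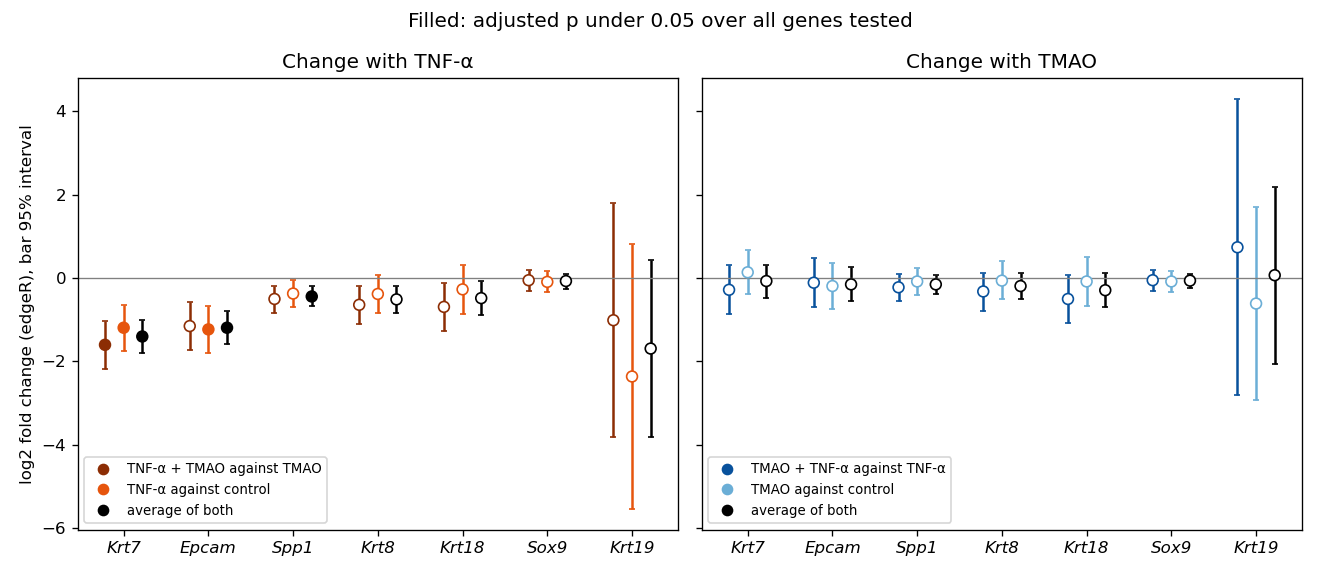
Log2 fold change (y axis, edgeR) of the 7 genes tested (x axis) with TNF-α (left) and with TMAO (right), in the presence and in the absence of the other agent and averaged over both; bars are 95% intervals and filled points have an adjusted p under 0.05. Filled points occur on the left only, for Krt7 (-1.60, -1.19 and -1.40), Epcam (-1.23 and -1.19) and Spp1 (-0.44).

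Other keratins were read beside the 5 of the list. The count table names 49 further Krt genes, of which 13 had no count, 11 were tested and 6 averaged at least 1 CPM in a group. Krt8 and Krt18 made up 92.61 and 93.03% of all keratin TPM in TMAO + TNF-α cells, 92.62 and 94.29% in TNF-α cells, 93.38 and 93.48% in TMAO cells, and 93.77 and 93.39% in control cells. Their share was thus close to the same in all groups, while the summed keratin TPM was 1537 and 1595 in TMAO + TNF-α cells, 1609 and 2062 in TNF-α cells, 2406 and 2448 in TMAO cells, and 2570 and 2404 in control cells.

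Of the 11 tested, 2 of the 6 at 1 CPM or more fell with TNF-α in the averaged comparison, where 3.86% of all genes tested were called lower. Krt20, a type I keratin of gut and urothelium, was the third keratin by level, with 85.6 and 82.3 TPM in TMAO + TNF-α cells, 89.7 and 83.5 TPM in TNF-α cells, 118 and 119 TPM in TMAO cells, and 121 and 119 TPM in control cells. Its averaged change was -0.45 ± 0.08 (adjusted p = 0.017, edgeR), and the libraries with and without TNF-α did not overlap. Krt33b, a hair keratin, had 1 and 4 counts in TMAO + TNF-α cells, 3 and 2 in TNF-α cells, 46 and 47 in TMAO cells, and 39 and 44 in control cells, a change of -3.99 ± 0.40 (adjusted p = 0.000723, edgeR). Sharing of its reads with similar hair keratins, such as Krt33a with 13 counts in total over the 8 libraries, was not tested. The epidermal keratins did not pass, with Krt5 at -0.43 ± 0.19 (adjusted p = 0.271), its partner Krt14 at 0.57 ± 0.18 (adjusted p = 0.123), Krt10 at 0.13 ± 0.14 (adjusted p = 0.716) and Krt76 at -1.04 ± 0.34 (adjusted p = 0.13, edgeR).

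**Figure D4:**
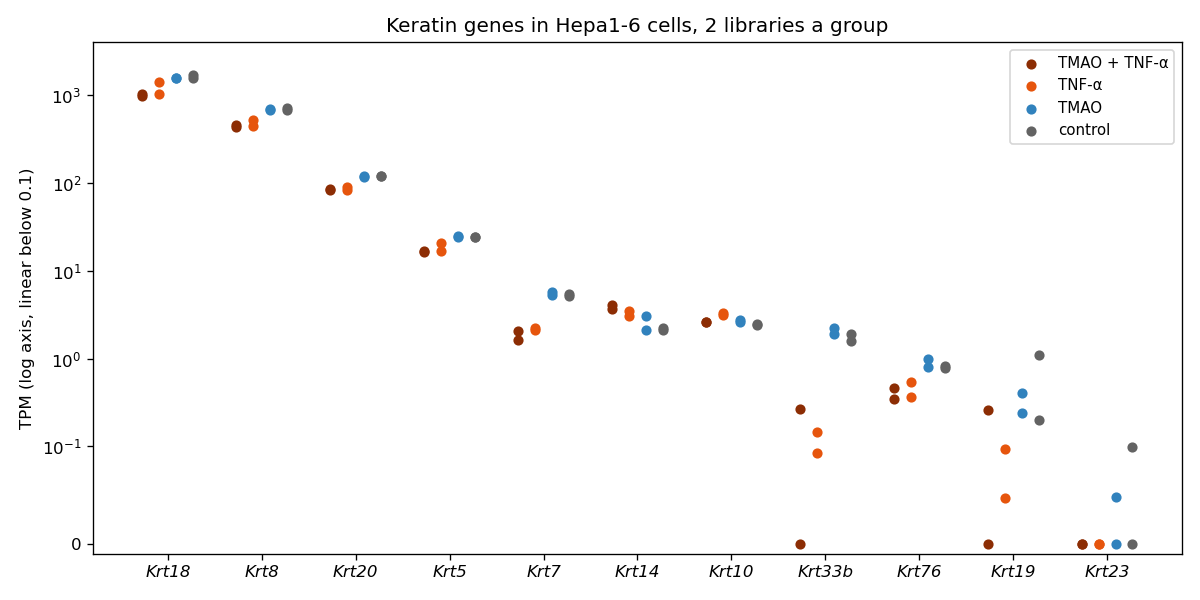
TPM of the 5 keratins of the list and of the 6 others with at least 1 CPM in a group (x axis, by mean level), 1 point a library, on a log axis that is linear below 0.1 TPM. Krt18 and Krt8 lie far above the rest, Krt20 is next at 82.3 to 121 TPM, and Krt23 is at 0 TPM in most libraries.

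The other genes of bile duct and liver progenitor cells did not move as a block with TNF-α. Of 26 listed, 20 were tested, 1 rose and 4 fell in the averaged comparison, with a median of -0.03 beside 0 for all genes (9.2% of all genes were called there). Itgb4, the laminin-binding integrin subunit of hemidesmosomes, averaged 46.1 ± 1.09 CPM in TMAO + TNF-α cells, 44 ± 6 in TNF-α cells, 88.2 ± 1.16 in TMAO cells and 85.1 ± 0.689 in control cells (SD, n = 2 each), a change of -0.94 ± 0.08 (adjusted p = 0.000749, edgeR). Lgr5, a receptor of the Wnt pathway, changed by -1.14 ± 0.16 (adjusted p = 0.00606) and Fgfr2, a growth factor receptor, by -0.81 ± 0.09 (adjusted p = 0.00175). Dcdc2a, a ciliary protein of the doublecortin family, rose, with 24.8 ± 1.16 CPM in TMAO + TNF-α cells, 23.2 ± 2.25 in TNF-α cells, 11.5 ± 0.945 in TMAO cells and 11.7 ± 0.0914 in control cells, a change of 1.05 ± 0.09 (adjusted p = 0.000642, edgeR).

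In the averaged comparison 3.86% of all genes tested were called lower and 5.35% higher. A list of 16 genes held desmosome and keratin linker genes, and also Vim and Lmna, which encode intermediate filament proteins themselves. Vim is in the mesenchymal list below as well. All 16 were tested, and 4 fell with TNF-α and none rose, with a median of -0.31 beside 0 over all genes. They were the desmosomal cadherin Dsc2 at -1.31 ± 0.14 (adjusted p = 0.00216), the plakin Ppl at -1.14 ± 0.14 (adjusted p = 0.00298), the plaque protein Jup at -0.50 ± 0.07 (adjusted p = 0.00423) and the desmosome-associated Perp at -0.43 ± 0.09 (adjusted p = 0.0317, all edgeR). Among 23 junction and polarity genes 18 were tested, and 2 fell and 1 rose, with a median of -0.05. Grhl2, a transcription factor of epithelial genes, changed by -1.03 ± 0.10 (adjusted p = 0.00107), the epithelial splicing factor Esrp2 by -0.79 ± 0.09 (adjusted p = 0.00285) and the tight junction claudin Cldn1 by 0.45 ± 0.11 (adjusted p = 0.0449, edgeR).

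Pathways around Spp1, Epcam and Sox9 were read the same way, beside 3.86% of all genes tested called lower and 5.35% higher. Of 10 osteopontin receptor genes 8 were tested, 3 rose and none fell, with a median of 0.41. They were the integrin subunits Itgb6 at 1.18 ± 0.10 (adjusted p = 0.000613), Itgb3 at 1.11 ± 0.11 (adjusted p = 0.00123) and Itga5 at 0.54 ± 0.06 (adjusted p = 0.00269, edgeR). Of 15 Epcam partners and cleavage genes 11 were tested and 1 rose, the protease inhibitor Spint2 at 0.72 ± 0.15 (adjusted p = 0.0292), with a median of 0.14. In the Notch pathway, which acts upstream of Sox9 in bile duct formation, 1 of 16 tested rose, the glycosyltransferase Mfng at 1.05 ± 0.20 (adjusted p = 0.0186), and none fell. The list of YAP target genes also held Yap1, Wwtr1 and Tead1, which are parts of the pathway rather than targets. Of its 17 genes tested 2 fell and 2 rose. Ccn2, a matricellular protein, at -2.38 ± 0.09 (adjusted p = 5.2e-05) and Ccn1 at -0.68 ± 0.07 (adjusted p = 0.00178, edgeR) were lower. Ptpn14 at 1.04 ± 0.14 (adjusted p = 0.00475) and F3 at 0.54 ± 0.07 (adjusted p = 0.00443, edgeR) were higher. Of 8 mesenchymal genes tested 1 fell, Sparc, by -0.53 ± 0.09 (adjusted p = 0.0131), and none rose, with a median of -0.28. With TMAO against control none of these lists had a called gene.

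**Figure D5:**
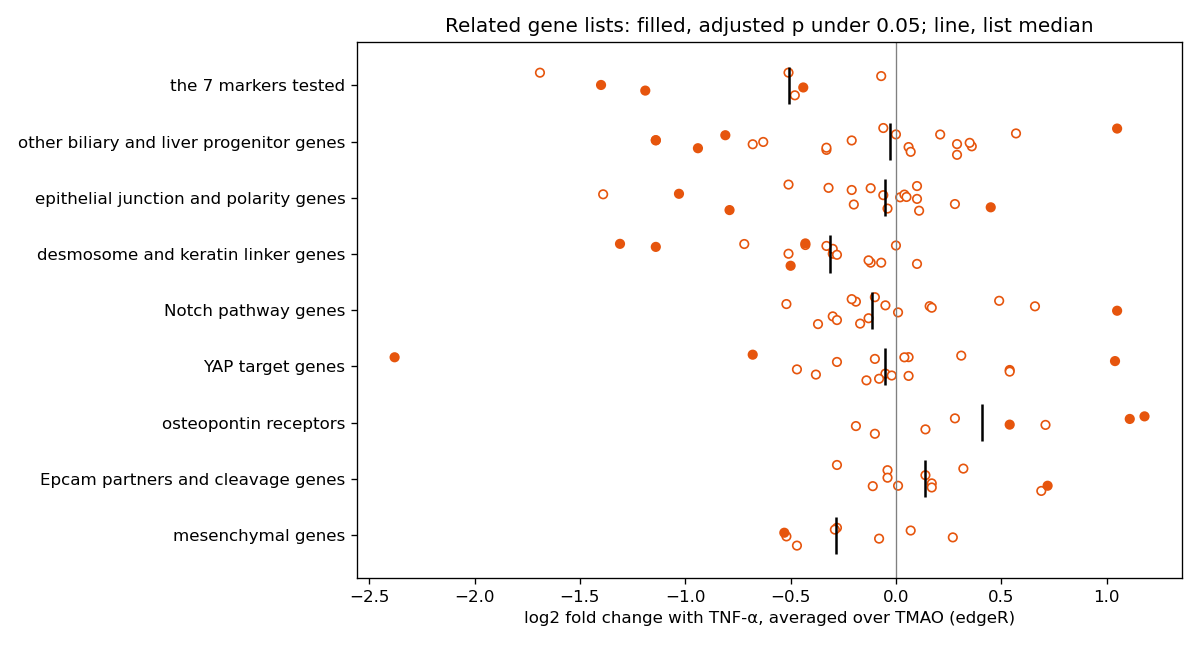
Log2 fold change with TNF-α averaged over TMAO (x axis, edgeR) of each tested gene in the marker list and in 8 related lists (rows); filled points have an adjusted p under 0.05 and black lines are list medians. The medians run from -0.51 for the 7 markers to 0.41 for the osteopontin receptors.

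Of the 10 hepatocyte markers 7 were tested, and 4 fell with TNF-α in the averaged comparison and none rose, with a median of -0.65. Among all genes tested 3.86% were called lower there and 5.35% higher. The 4 were Alb (-1.60), Afp (-1.16), Hnf4a (-0.65) and Fgb (-1.69), while Apoa2, at 1.07, had an adjusted p of 0.0524 (edgeR). The summed level of the 10 hepatocyte markers was 1110 to 1160 CPM in TMAO + TNF-α cells, 1150 to 1410 in TNF-α cells, 2800 to 2840 in TMAO cells and 2970 to 3110 in control cells, most of it Alb and Afp. The 9 stellate and fibroblast markers summed to 1300 to 1330 CPM in TMAO + TNF-α cells, 1350 to 1480 in TNF-α cells, 1670 to 1690 in TMAO cells and 1730 to 1830 in control cells, nearly all of it Dcn (-0.34, adjusted p = 0.0583, edgeR), with Pdgfra next and with Lrat, Acta2 and Pdgfrb at 4 counts or fewer in each library. Summed leukocyte markers were at 12.5 to 14.2 CPM in TMAO + TNF-α cells, 14.8 to 17.2 in TNF-α cells, 14.9 to 16.3 in TMAO cells and 16 to 17.8 in control cells, and of the 2 tested Csf1r fell (-1.08, adjusted p = 0.00118, edgeR). Endothelial markers summed to 1.26 to 1.67 CPM in TMAO + TNF-α cells, 1.36 to 1.42 in TNF-α cells, 0.946 to 1.36 in TMAO cells and 0.879 to 1.31 in control cells. The part of these levels in the changes of Krt7, Epcam and Spp1 was not tested.

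For each called gene the 3 genes with the most similar pattern were taken by Pearson's r of log2 CPM over the 8 libraries among 12367 genes, as a description, since the points share libraries and fall into those with and without TNF-α. Nearest to Krt7 were Arl4c (r = 0.9945), Prune1 (0.9944) and Gne (0.9932). Nearest to Epcam were Tcp11l2 (r = 0.9949), Aqp11 (0.9947) and Mid1ip1 (0.9919). Nearest to Spp1 were Cdkn2c (r = 0.9973), Ephx1 (0.9955) and Clu (0.9948). Aqp11 averaged 2.89 CPM in TMAO + TNF-α cells, 3.04 in TNF-α cells, 6.11 in TMAO cells and 6.6 in control cells, and Clu averaged 357 CPM in TMAO + TNF-α cells, 458 in TNF-α cells, 636 in TMAO cells and 672 in control cells.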

How the data were processed

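Polyadenylated RNA of 8 Hepa1-6 libraries was selected with oligo-dT beads and sequenced as paired reads of 150 bases, per the labels' protocols. The authors deposited whole-number counts per Ensembl gene (the table's name holds htseq) and TPM per gene symbol. The genome build was mm9 per the submitters' processing notes. Aligner, annotation, strand setting and TPM program were not given in the sources used here, so antisense reads cannot be told apart. Identifiers were matched to symbols through a GENCODE annotation (54409 of 54446).

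Groups were taken from titles and treatment labels. Counts were fitted with edgeR 4.0.16 in R 4.3.3 (filterByExpr, TMM, 4 group means over all 8 libraries, glmQLFit robust, 4 residual degrees of freedom) and tested by quasi-likelihood, and p-values were adjusted by Benjamini-Hochberg over 15613 genes at 0.05. CPM are counts scaled to library size after TMM. Promoters were read from a RefSeq table (GRCm38.p6). The test was also run on simulated counts whose spread per gene was the same in all groups. This does not check the wider difference between the TNF-α libraries. Alternatives were DESeq2 1.42.0, limma 3.58.1 (voom, or log2 of TPM plus 1 or 0.1 over 22654 entries with at least 0.1 TPM in 2 libraries), other scalings and filters, a replicate block, fits to the compared groups alone, and leaving out each library. Left out of the TPM test were 191 rows with repeated symbols and 27 turned into dates.

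Members and lists were chosen with earlier results of these data known. Named genes are all 8 markers, up to 4 called genes of each list by smallest p (otherwise the 2 smallest), all other keratins with a mean of at least 1 CPM in a group, and the 3 genes most like each called marker. Counts per library set the precision, and intervals cover the spread between libraries.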

Additional observations from a re-analysis of the deposited data

How the results depend on the processing

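In the averaged TNF-α comparison Krt7, Epcam and, in 11 of 18 settings, Spp1 were called. The number of the 8 genes called was 3, and 5 without the low-count filter and with limma on log2(TPM + 1) or log2(TPM + 0.1). Leaving out 1 library gave 2 to 5. For TNF-α against control it was 2, and 0 in the fit to these groups alone, 0 with limma on log2(TPM + 0.1), and 0 to 5 on leaving out 1 library. For TMAO + TNF-α against TMAO it was 1, and 4 without the low-count filter, 5 in the groups alone, 2 with limma-voom, 3 with DESeq2, and 0 to 5 on leaving out 1 library. For TMAO + TNF-α against control it was 2, and 5 without the filter, in the groups alone and with DESeq2, 1 with limma on either TPM scale, and 0 to 5 on leaving out 1 library. It was 0 for TMAO against control throughout, and 0 to 4 on leaving out 1 library for TMAO + TNF-α against TNF-α, for TMAO averaged and for the interaction, the 4 being without TNF-α 14. Without TNF-α 16 and control 14 together, chosen after seeing the data, 5 were called in each of the 4 TNF-α comparisons, beside 20.1% to 34% of all genes, and 0 in the others. The share of all genes called moved too. For TMAO + TNF-α against TMAO it was 3.64%, and 3% unfiltered, 31.9% in the groups alone, 3.52% with limma-voom and 5.19% with DESeq2. For TMAO + TNF-α against control it was 3.49%, and 2.99% unfiltered, 15.9% in the groups alone and 5.02% with DESeq2. In the averaged comparison it was 9.2%, and 5.98% unfiltered and 3.54% and 3.37% with limma on the 2 TPM scales. The cause of these differences was not tested. Genes called over the whole table for TNF-α against control numbered 633, and 7971 without TNF-α 14, 2113 without TNF-α 16, 92 without control 14, 98 without control 16, 342 with the replicate block, 1 in the groups alone, and 188 and 155 with limma on the 2 TPM scales. No value of a gene reversed with a call: of 1023, 903 stayed on the same side of the threshold, of which 46 changed sign with neither value called, 73 passed in addition and 47 no longer passed.

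The numbers 14 and 16 did not pair the libraries (correlations of the 14 minus 16 differences between groups of -0.64, for TNF-α with control, to 0). With the replicate block, 0 genes were called for TNF-α against control, 1 for TMAO + TNF-α against control, 1 for TMAO + TNF-α against TMAO, and 2 (Krt7 and Epcam) in the averaged comparison, where Spp1 at -0.44 had an adjusted p of 0.0825 (edgeR). Depth limits Krt19 and Krt23, with at most 17 and 3 counts in a library.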

Other observations

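Among the keratins below 1 CPM in every group, Krt42 was called in the averaged TNF-α comparison and was picked out after its values were seen. It averaged 0.695 CPM in TMAO + TNF-α cells, 0.533 in TNF-α cells, 0.136 in TMAO cells and 0.221 in control cells, with 4 to 24 counts in a library, a change of 1.78 ± 0.38 on the log2 scale (adjusted p = 0.0263, edgeR's quasi-likelihood test). It is the 1 keratin of the 11 further ones tested that was called higher, where 5.35% of all genes tested were called higher. Onecut1, a transcription factor of biliary development that the naming rule left out, fell by -1.14 ± 0.25 (adjusted p = 0.0357, edgeR).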
